A study of Mus musculus with 8 samples.

Results

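Gene expression was compared between A223 cells with a knockdown of PRDX6 (KD) and parental A223 cells, both sampled with DMSO at 0 h and without the drug that the study goes on to use. The compared means come from 4 of the study's 8 polyA RNA libraries, namely the 2 KD DMSO and the 2 parental DMSO libraries. These were chosen by their labels and described across all genes with enough counts. The spread behind the p-values was estimated from all 8 libraries together. A223 is a mouse squamous cell carcinoma line, and the other 4 libraries hold the same genotypes treated with largazole, which inhibits class I histone deacetylases, at 100 nM for 18 h. The labels call the knockdown cells PRDX6 KD without naming the construct or the method. KD cells were compared with parental cells, and no non-targeting construct was analysed here. Nothing in the labels says that the replicates of a group were grown separately, so the p-values below reflect how far these particular libraries scatter, a scatter that may be technical.

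PRDX6 is a peroxiredoxin with a single catalytic cysteine that reduces hydrogen peroxide and phospholipid hydroperoxides with the help of glutathione, and it also has phospholipase A2 activity. It sits in a larger network of peroxide-reducing enzymes, the other peroxiredoxins, thioredoxins, glutaredoxins and glutathione peroxidases. Interferon signalling, to which much of what follows belongs, runs from receptors through the kinases JAK1 and TYK2 to a transcription factor complex that includes STAT2 and IRF9, which binds a short promoter motif and switches on antiviral genes.

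The 4 DMSO libraries held 13798502 to 15613216 estimated counts, and 12517 of 24411 genes were tested. Pairs of values below are in the order replicate 1 and replicate 2, in CPM, counts scaled to the size of the library. The squamous label was checked against 19 markers, of which 5 (Epcam, Trp63, Krt16, Krt17 and Pitx1) had 0 counts in all 4 DMSO libraries. With Krt5, Krt14, Krt6a, Cdh1, Cdh3, Dsp, Perp and Pkp1, 13 of the 19 had at most 4 counts in each of these libraries, so most markers of squamous epithelium were at or near 0. The keratin genes Krt8 (2036 and 1908 CPM in parental, 2267 and 2182 CPM in KD) and Krt18 were present, as were Sox2 and the integrin chains Itga6 and Itgb4, while the mesenchymal filament gene Vim stood at 6489 and 6213 CPM in parental and 5779 and 5696 CPM in KD cells. The summed level of the squamous markers was 2550 to 2690 CPM in parental and 2710 to 2790 CPM in KD libraries, most of it from Krt8, a keratin of simple epithelia. Itga6 (log2 fold change -0.50, adjusted p = 0.0158) and Itgb4 (-0.42, adjusted p = 0.0177) were called lower, calls that were lost without any 1 DMSO library (adjusted p = 0.0766 to 0.17). Of 11 lymphocyte markers 10 were at 0, and of 12 macrophage markers the defining Ptprc, Adgre1, Aif1 and Tyrobp were at 0. The macrophage sum was 46.4 to 47.3 CPM in parental and 56.9 to 58.6 CPM in KD libraries. Most of it came from Cd14, at 36.1 and 37.0 CPM in parental and 48.3 and 48.5 CPM in KD cells, with Cd68 and Mrc1 present at lower levels. Of the 6 tested macrophage members 0 passed the test with edgeR, DESeq2 or limma-voom (1 at an unadjusted p under 0.05). In bulk RNA, a change in the number of cells of one kind and a change in RNA per cell cannot be told apart.

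Prdx6, on chromosome 1 (161240112 to 161251219, minus strand, GRCm38), was measured at 297 and 283 CPM in parental and at 86.6 and 79.2 CPM in KD cells, 28.6% of the parental level. The groups lay far apart relative to their replicates, and the log2 fold change was -1.81 ± 0.11 (SE, adjusted p = 1.28e-05, quasi-likelihood F test of edgeR, adjusted by Benjamini-Hochberg over all tested genes, as for every adjusted p below). None of its near relatives passed the test. The log2 fold changes of the other 5 peroxiredoxin genes tested were 0.08 for Prdx1 (adjusted p = 0.737), 0.23 for Prdx2 (adjusted p = 0.306), 0.06 for Prdx3 (adjusted p = 0.779), 0.09 for Prdx4 (adjusted p = 0.72) and 0.51 for Prdx5 (adjusted p = 0.0914). Among all 18 tested peroxiredoxin, thioredoxin and glutaredoxin genes 1 rose and 2, Prdx6 included, fell, with a median log2 fold change of 0.01, where 11.1% of all tested genes passed. The riser was Glrx, a cytosolic glutaredoxin that removes glutathione from protein thiols, at 67.4 and 67.5 CPM in parental and 114 and 108 CPM in KD cells (log2 fold change 0.72 ± 0.10, adjusted p = 0.0018). The other faller was Txnrd1, which recharges thioredoxin, at 320 and 318 against 257 and 260 CPM (-0.30 ± 0.07, adjusted p = 0.0276), a call that was lost when any 1 DMSO or parental largazole library was left out (adjusted p up to 0.2). Without KD largazole replicate 1 or replicate 2 the count for these genes was 6 in place of 3.

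Across all tested genes 890 (7.11%) were higher and 502 (4.01%) lower in KD cells, and the median log2 fold change of all tested genes was 0.00. By at least 2-fold, 374 genes (2.99%) were higher and 46 (0.368%) lower. The larger rises came from genes with low parental levels: the median parental level of the 374 genes was 2.57 CPM, against 29.6 CPM over all tested genes, and 37 of them were tested only because the KD libraries had enough counts. The KD and parental libraries were fully separated in every called gene, but separation alone also held for 30.5% of tested genes in the higher and 30.3% in the lower direction. Without any 1 DMSO library fewer genes passed: 425 with parental DMSO replicate 1 left out, 418 with parental DMSO replicate 2, 470 with KD DMSO replicate 1 and 617 with KD DMSO replicate 2. More passed once KD largazole replicate 1 (2993) or replicate 2 (3016) was left out, the group whose libraries differ most, and a fit of the 4 DMSO libraries by themselves called 3248 of 11632 genes (27.9%). In all, 289 higher and 63 lower genes kept their call without any 1 of the 8 libraries, and genes said below to have risen or fallen are among them unless a library is named. That holds for genes named singly. In counts of list members, rose and fell cover every gene called in the fit of all 8 libraries. Such counts can be set against the 7.11% higher and 4.01% lower of all tested genes. Levels of genes drawn from each group described below are shown in the plot of 24 genes.

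**Figure D1:**
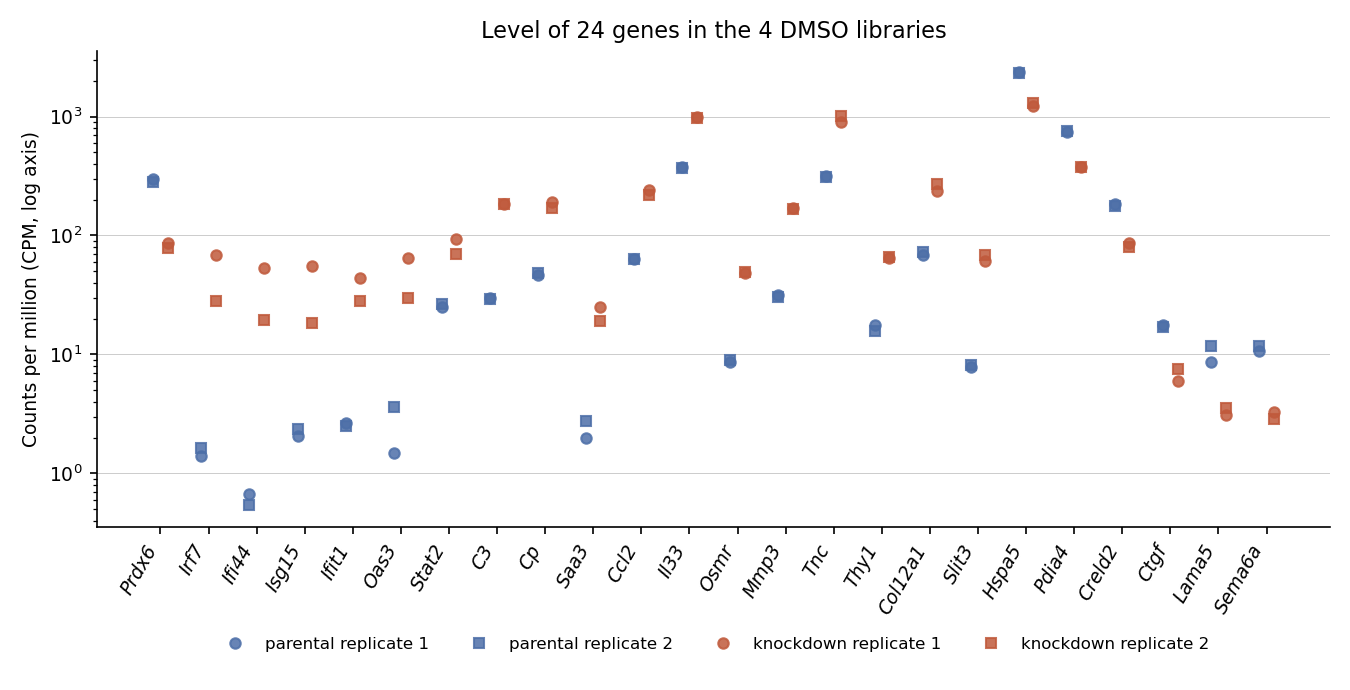
Level of 24 genes in the 4 DMSO libraries, in CPM on a log axis; blue points are parental and orange points knockdown libraries, circles replicate 1 and squares replicate 2. The 2 knockdown points lie apart from each other in the interferon genes (Irf7 at 68.8 and 28.4 CPM) and close together in genes such as C3 (183 and 186 CPM) and Mmp3 (169 and 168 CPM).

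The gene list with the highest median was that of interferon-stimulated genes, the antiviral effectors that this pathway induces. Of 51 tested members 49 rose, 45 of them by at least 2-fold, none fell, and the median log2 fold change was 2.55. Of the 51, 7 were tested only because the KD libraries had enough counts, so the count and the median partly reflect that filter. Promoter stretches of 3 strongly raised members, chosen because they hold the interferon-stimulated response element, were taken from RefSeq (GRCm38.p6) and are printed 5′ to 3′ on the gene's strand, with matches to that element, searched as GAAANNGAAA on both strands, in capitals. They are chr19:34640740-34640858, plus strand for Ifit1, chr4:156200830-156200941, minus strand for Isg15 and chr5:120777680-120777779, minus strand for Oas3.
Ifit1: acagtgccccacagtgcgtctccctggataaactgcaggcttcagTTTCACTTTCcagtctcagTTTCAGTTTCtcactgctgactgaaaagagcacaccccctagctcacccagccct
Isg15: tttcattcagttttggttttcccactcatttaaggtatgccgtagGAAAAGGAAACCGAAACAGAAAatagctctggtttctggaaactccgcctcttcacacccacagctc
Oas3: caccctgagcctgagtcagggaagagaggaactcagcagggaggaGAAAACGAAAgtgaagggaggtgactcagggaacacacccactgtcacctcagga
Ifit1 holds 2 matches on the opposite strand, Isg15 a run of 3 overlapping matches and Oas3 1 match. In the window from 250 bases before to 50 bases after the start, 21 of the 39 list members with a RefSeq entry held at least 1 match and 18 did not. Counted per gene in the same way, 3.99% of all 27025 genes in the promoter table held one. Cmpk2, a mitochondrial nucleotide kinase raised by more than the genes printed above (log2 fold change 4.599 ± 0.383, adjusted p = 7.65e-05), is among those without a match. Entries were found for 76.5% of the list, so the count describes those 39 genes and not the list. Outside that list, Ddx58, Ifih1 and Stat2 also held the motif. A match is a description of the letters, not a binding site or a cause.

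Among the effectors, Ifit1, which binds foreign RNA at its cap, went from 2.66 and 2.50 CPM in parental to 44.1 and 28.4 CPM in KD cells (log2 fold change 3.81 ± 0.26, adjusted p = 2.67e-05). Isg15, a ubiquitin-like modifier, went from 2.07 and 2.36 to 55.3 and 18.4 CPM (4.05 ± 0.49, adjusted p = 0.00063). Usp18, the protease that removes ISG15 and dampens the receptor, went from 0.666 and 1.42 to 45.2 and 17.4 CPM (4.88 ± 0.53, adjusted p = 0.000328). In each of these the KD libraries lay above both parental libraries, with replicate 1 the higher. Oas3, which makes the second messenger that activates RNase L, went from 1.48 and 3.64 to 65.0 and 29.9 CPM (4.19 ± 0.41, adjusted p = 0.000198). Its neighbour Oas2 had 3 counts in the parental and 160 in the KD libraries together, a ratio of 52.6 with an exact 95% counting interval of 17.7 to 258. Genes restricting virus entry or release rose from higher levels, Ifitm3 from 307 and 331 to 1014 and 740 CPM and Bst2 (tetherin) from 19.7 and 22.3 to 152 and 61.8 CPM. Lgals3bp, a secreted glycoprotein, rose from 48.5 and 54.8 to 324 and 173 CPM. Of the members that did not pass, Epsti1 stood at 0.71 on the log2 scale (adjusted p = 0.159) and Ifi27l2a at 1.52 (adjusted p = 0.387).

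The machinery that senses nucleic acids and relays interferon signals moved in part. Of 32 tested members 17 rose, none fell and the median was 0.54. The cytosolic RNA sensors rose, Ddx58 (RIG-I) from 29.6 and 29.9 to 144 and 104 CPM (log2 fold change 2.06 ± 0.15, adjusted p = 2.8e-05), Ifih1 (MDA5) by 2.37 and their regulator Dhx58 by 2.28. Zbp1, which senses Z-form nucleic acids, went from 0.666 and 0.810 to 29.4 and 10.98 CPM. Downstream, Irf7, the factor that amplifies interferon genes, went from 1.41 and 1.62 to 68.8 and 28.4 CPM (log2 fold change 4.998 ± 0.448, adjusted p = 0.000108). Stat2 rose from 25.1 and 26.7 to 92.9 and 70.3 CPM and Irf9 from 10.4 and 9.04 to 61.9 and 33.8 CPM. The adaptor Mavs (log2 fold change 0.08, adjusted p = 0.64), the kinases Tbk1 (0.04, adjusted p = 0.849), Jak1 (0.14, adjusted p = 0.515) and Tyk2 (0.15, adjusted p = 0.474), and the receptor chain Ifnar1 (0.10, adjusted p = 0.537) did not pass. Without parental DMSO replicate 2 the count for this list was 11.

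The genes for the interferon ligands were examined after the rise was seen. Of 21 listed type I, II and III interferon genes, 20 had 0 counts in all 4 DMSO libraries, Ifnb1, Ifng and all listed Ifna genes among them. The exception was Ifnz, with 0 and 3 counts in parental and 3 and 4.48 estimated counts in KD libraries. A count of 0 allows a level of up to 0.192 to 0.217 CPM in these libraries, a limit that covers counting error only.

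Raised interferon genes lay in clusters of neighbouring tested genes. Runs of 5 adjacent genes that all rose held Ifi204, Mndal, Ifi203, Ifi202b and Ifi205 on chromosome 1, Oas2, Oas3, Oas1c, Oas1b and Oas1a on chromosome 5, and Trim34a, Trim12a, Trim12c, Trim30a and Trim30d on chromosome 7. A run of 4 on chromosome 19 held Ifit2, Ifit3, Ifit3b and Ifit1, and a run of 4 on chromosome 3 held Gbp5, Gbp7, Gbp3 and Gbp2. Members of such families are near copies of each other, so the split of counts among them is uncertain. Of the chromosome 1 run, the calls of Ifi202b and Ifi204 were lost without parental DMSO replicate 2 (adjusted p = 0.0599 and 0.0527) and that of Ifi205 also without parental DMSO replicate 1 (adjusted p = 0.0754) or KD DMSO replicate 1 (adjusted p = 0.234). In the Oas run, the calls of Oas1a and Oas1c were lost without either parental DMSO library or KD DMSO replicate 1 (adjusted p = 0.0715 to 0.255) and that of Oas1b without parental DMSO replicate 2 (adjusted p = 0.0563). The call of Ifit2 was lost without any 1 DMSO library (adjusted p = 0.099 to 0.211). The call of Trim12a was lost without either parental DMSO library or KD DMSO replicate 1 (adjusted p = 0.0909 to 0.121). The exons of Irf7 overlap those of Phrf1 on the other strand, those of Irf9 overlap Rnf31 and those of Ifi203 overlap Mndal, and the strand setting of the counting is not given in the sources used here.

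Antigen presentation by MHC class I, which interferon also induces, rose for 7 of 20 tested genes, with a median of 0.35. The non-classical H2-T23 went from 18.1 and 17.4 to 76.3 and 46.5 CPM (log2 fold change 1.79 ± 0.21, adjusted p = 0.000521) and the peptide-loading factor Tapbp from 84.3 and 91.4 to 186 and 140 CPM (0.89 ± 0.12, adjusted p = 0.00117). The classical heavy chains did not pass, with 0.13 for H2-K1 (adjusted p = 0.547) and 0.09 for H2-D1 (adjusted p = 0.699), nor did the light chain B2m (0.20, adjusted p = 0.426). The 2 members that fell, Calr and Pdia3, are also chaperones of the endoplasmic reticulum (ER). With parental DMSO replicate 1 left out 3 rose, with KD DMSO replicate 1 left out 4, and with KD largazole replicate 1 or 2 left out 12 and 11.

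The 2 KD libraries differed in the size of the interferon rise. In replicate 1 the level was above that in replicate 2 in all 51 tested members, with a median log2 difference of 0.59, and their summed level was 3784 and 2623 CPM against 999.9 and 1068 CPM in the parental libraries. Rn45s, the precursor of ribosomal RNA, stood at 9963 CPM in KD replicate 1 and 2549 CPM in KD replicate 2, against 1353 and 1212 CPM in parental, and its part in the interferon rise was not tested. The number of interferon-stimulated genes rising was 41 to 49 without any 1 library, and 40 kept their call throughout. In the mesenchymal and matrix list, replicate 1 was above replicate 2 in 10 of 32 genes, with a median of -0.04.

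**Figure D2:**
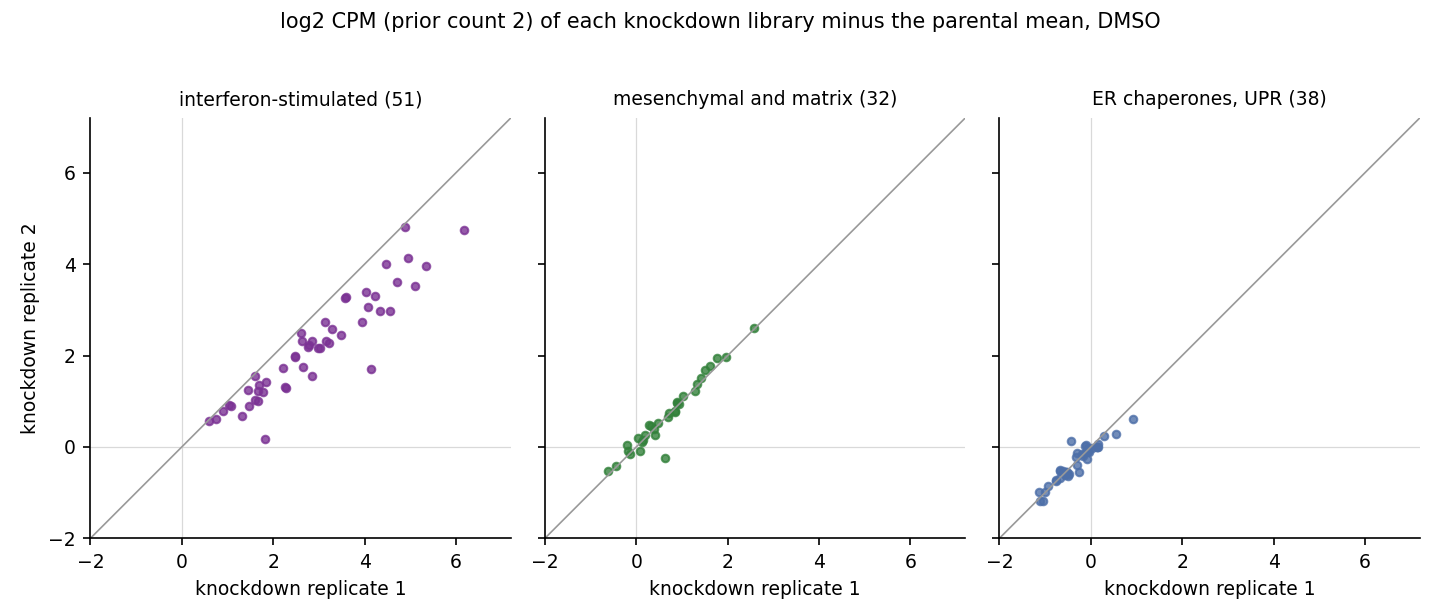
Each panel plots, for the tested members of 1 list, the log2 CPM (prior count 2) of KD replicate 1 (x axis) and KD replicate 2 (y axis) minus the parental mean in DMSO; the grey diagonal marks equal values. All 51 interferon-stimulated genes lie below the diagonal, while the 32 mesenchymal and matrix genes and the 38 ER genes lie close to it on both sides.

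Complement and acute-phase genes, the secreted and plasma-protein arm of inflammation, rose in 9 of 18 tested cases, none fell and the median was 2.05. Of the 18, 5 were tested only through the KD libraries, and 10 more members had too few counts. C3, the central complement component, went from 29.8 and 29.2 to 183 and 186 CPM (log2 fold change 2.64 ± 0.12, adjusted p = 3.85e-06). The proteases that start the classical cascade rose too, C1s1 from 8.65 and 7.08 to 25.4 and 24.8 CPM and C1ra from 7.84 and 6.48 to 20.3 and 17.5 CPM, as did their inhibitor Serping1, from 0.666 and 1.08 to 8.17 and 6.26 CPM. The acute-phase genes Saa3 (2.00 and 2.77 to 25.2 and 19.01 CPM) and Cp, which encodes the copper-carrying ferroxidase ceruloplasmin (46.6 and 48.2 to 191 and 169 CPM), rose by 3.21 ± 0.30 (adjusted p = 0.000148) and 1.92 ± 0.13 (adjusted p = 1.86e-05). Steap4, a metalloreductase of iron and copper, went from 0.813 and 0.472 to 16.1 and 16.6 CPM (4.67 ± 0.25, adjusted p = 6.15e-06). The list summed to 145 and 144 CPM in parental and 529 and 499 CPM in KD libraries. Lcn2 had 2 counts in parental and 28 in KD libraries, a ratio of 13.8 (interval 3.48 to 120), and its call was lost without either parental DMSO library or KD DMSO replicate 1 (adjusted p = 0.162 to 0.197). The exons of Cp overlap those of Hps3 on the other strand.

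Promoters of these genes and of the cytokine genes were searched on both strands for the C/EBP motif TTGCNNAA and the NF-kB motif GGGANNTTCC. C/EBP and NF-kB factors are the textbook regulators of the acute-phase response. Matches are in capitals in the stretches of Saa3 (chr7:46715723-46715820, minus strand), Cp (chr3:19957134-19957231, plus strand) and Il6 (chr5:30013025-30013113, plus strand, whose capitals mark the NF-kB letters).
Saa3: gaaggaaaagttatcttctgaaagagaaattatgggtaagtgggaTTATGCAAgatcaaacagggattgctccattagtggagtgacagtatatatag
Cp: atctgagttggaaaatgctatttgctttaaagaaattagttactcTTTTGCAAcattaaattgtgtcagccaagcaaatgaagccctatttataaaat
Il6: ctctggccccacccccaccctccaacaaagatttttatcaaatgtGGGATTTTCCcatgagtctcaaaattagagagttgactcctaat
The C/EBP letters were in 8 of the 12 complement and acute-phase genes with an entry (66.7% of the list, so a share over the list is void), among them C3, C1s1 and Steap4. Counted per gene, they were in 12.2% of all 27025 genes in the promoter table. The NF-kB letters were in 5 of 15 chemokine and cytokine genes with an entry and in 1.63% of all genes in the promoter table. Conversely, the NF-kB letters were in 0 of the 12 complement and acute-phase genes with an entry. The C/EBP letters were in 3 of the 15 chemokine and cytokine genes with an entry. No C/EBP match overlaps the NF-kB match in the Il6 stretch, and matches are again a description only.

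Chemokines, cytokines and colony-stimulating factors rose in 15 of 23 tested cases and fell in 1, with a median of 1.41. Of the 23, 3 were tested only through the KD libraries. Il33, an alarmin held in the nucleus, was among the most abundant, at 373 and 366 CPM in parental and 984 and 977 CPM in KD cells (log2 fold change 1.41 ± 0.07, adjusted p = 6.15e-06). Ccl2, which attracts monocytes, went from 63.2 and 63.2 to 242 and 220 CPM (1.87 ± 0.13, adjusted p = 2.73e-05), and its neighbours Ccl7 and Ccl8 rose with it. The neutrophil attractant Cxcl5 went from 0.296 and 1.15 to 8.56 and 7.66 CPM, Il6 from 0.222 and 0.202 to 3.75 and 3.09 CPM (3.96 ± 0.50, adjusted p = 0.00076) and Lif, of the same cytokine family, from 33.4 and 35.7 to 81.5 and 78.4 CPM (1.21 ± 0.09, adjusted p = 5.5e-05). The faller was Cxcl12, a homing chemokine of stromal cells, at 33.8 and 35.2 CPM against 18.3 and 16.8 CPM (-0.97 ± 0.12, adjusted p = 0.000531). Csf3 had 2 counts in parental and 45 in KD libraries, a ratio of 22.2 (interval 5.79 to 189). Without parental DMSO replicate 1 and 2 the number rising was 7 and 9. The calls of Csf3 (without any 1 DMSO library, adjusted p = 0.052 to 0.161) and Ccl8 (without either parental DMSO library or KD DMSO replicate 1, adjusted p = 0.108 to 0.137) were among those lost.

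Single genes that act downstream of IL-6 family cytokines were looked at next, without a gene list of their own. Among them, Stat3 and Socs3 belong to the list of nucleic acid sensors and interferon signalling above and are already counted among its risers. Osmr, the receptor chain for oncostatin M, went from 8.65 and 8.91 to 48.7 and 49.4 CPM (log2 fold change 2.48 ± 0.14, adjusted p = 8.68e-06), Stat3, the family's main transcription factor, from 104 and 102 to 182 and 185 CPM (0.84 ± 0.08, adjusted p = 0.000162), and its feedback inhibitor Socs3 from 48.8 and 51.6 to 84.2 and 74.9 CPM (0.66 ± 0.10, adjusted p = 0.00177). Cebpd, a C/EBP factor of the acute phase, went from 46.0 and 49.5 to 193 and 150 CPM (1.84 ± 0.16, adjusted p = 7.72e-05). Osmr and Cebpd were chosen after their values were seen. Of 24 tested NF-kB subunits, regulators and targets 2 rose and none fell (8.33%, near the 11.1% of all tested genes), with a median of 0.13, and the riser with the larger change, Bcl3, lost its call without KD DMSO replicate 1 (adjusted p = 0.064) or parental DMSO replicate 1 (adjusted p = 0.0761). Leaving out parental DMSO replicate 1 or KD DMSO replicate 1 lowered that count to 1, and leaving out KD largazole replicate 1 or 2 raised it to 6 and 5.

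**Figure D3:**
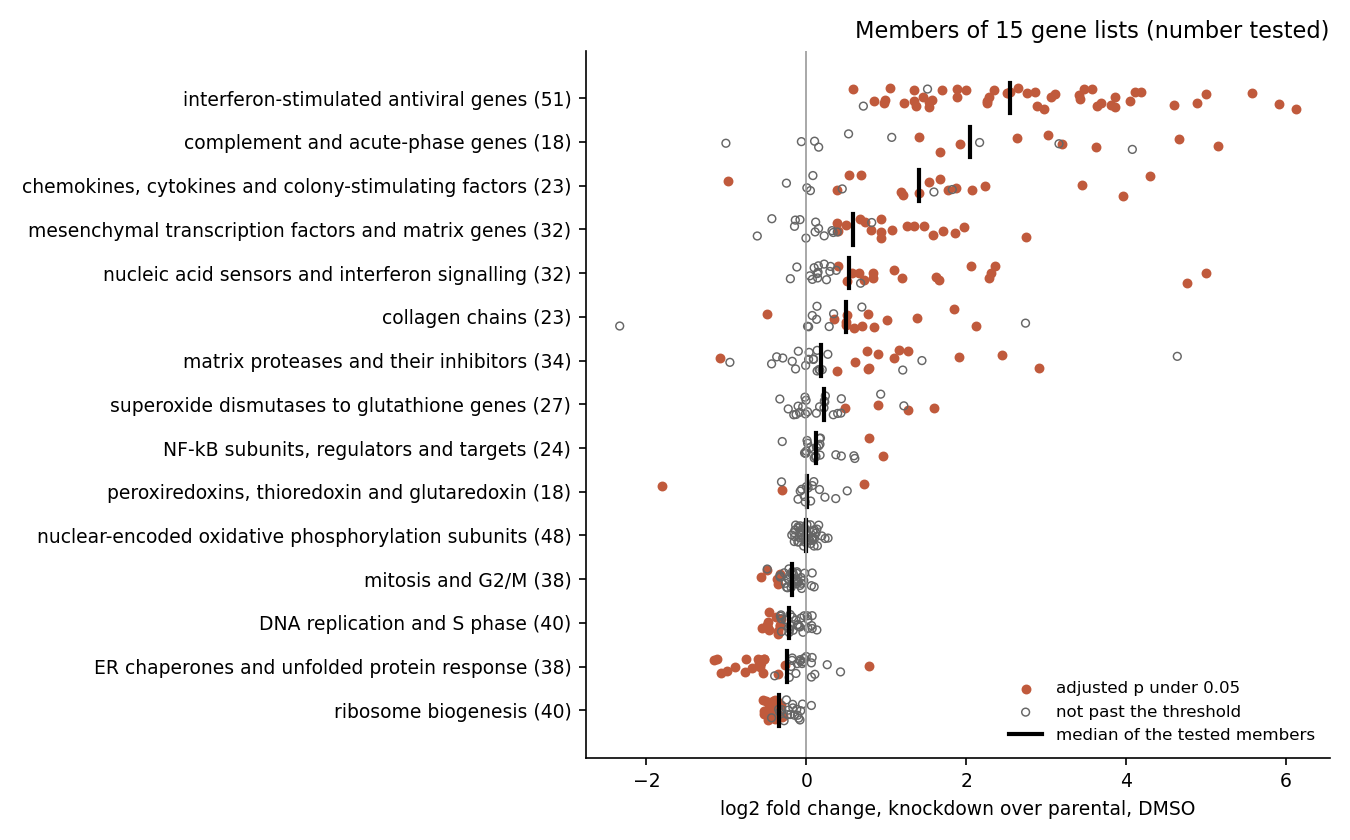
Fitted log2 fold change (KD over parental, DMSO) of the tested members of 15 gene lists, with the number tested in parentheses; filled points passed the test, open points did not, and black bars are medians over tested members. Interferon-stimulated genes sit furthest to the right with a median of 2.55, oxidative phosphorylation subunits sit at 0.00, and ribosome biogenesis and ER genes lie to the left at -0.34 and -0.24.

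Genes of the extracellular matrix and of mesenchymal cells rose in 18 of 32 tested cases, with a median of 0.58, and none fell. Tnc, a matrix glycoprotein of wounds and tumour stroma, went from 318 and 312 to 894 and 1006 CPM (log2 fold change 1.59 ± 0.10, adjusted p = 1.43e-05). Thy1, a surface glycoprotein of fibroblasts, went from 17.6 and 15.9 to 65.3 and 65.6 CPM (1.97 ± 0.12, adjusted p = 9.87e-06), and Loxl2, a collagen cross-linking enzyme, from 24.2 and 21.7 to 78.4 and 88.3 CPM (1.86 ± 0.12, adjusted p = 1.66e-05). The microfibril gene Fbn1 went from 123 and 118 to 321 and 344 CPM and the proteoglycan Dcn from 70.6 and 72.5 to 174 and 168 CPM. The groups did not overlap in any of these. Of the transcription factors of the epithelial to mesenchymal transition, Twist2 rose by 0.82 on the log2 scale (adjusted p = 0.002), while Snai1 (0.34, adjusted p = 0.14), Snai2 (-0.08, adjusted p = 0.798), Twist1 (0.00, adjusted p = 1), Zeb1 (0.11, adjusted p = 0.658) and Zeb2 (-0.43, adjusted p = 0.153) did not pass, nor did Vim (-0.15, adjusted p = 0.325) or Fn1 (0.39, adjusted p = 0.105). All 9 tested members of a fibroblast marker list of 12 genes rose, though not all of these calls held when any 1 library was left out. The other 3 members, Fap, Lum and Postn, had at most 4 counts in each DMSO library. The summed level of the list was 3760 to 3780 CPM in parental and 5450 to 5520 CPM in KD libraries. The list includes Thy1 and Dcn, described above, so it is not a set apart from the matrix genes, and its part in the rise of the other matrix genes was not tested. The number rising in the mesenchymal list was 15 to 20 without any 1 library.

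Collagen chains rose in 12 of 23 cases and fell in 1 (56.5%, against 11.1% of all tested genes), with a median of 0.50. Col12a1, a fibril-associated collagen, went from 69.0 and 72.1 to 236 and 272 CPM (log2 fold change 1.85 ± 0.13, adjusted p = 3.29e-05), the fibrillar Col3a1 from 687 and 682 to 1164 and 1167 CPM and Col6a1 from 47.4 and 49.3 to 96.5 and 99.1 CPM. Col18a1, a basement membrane collagen, fell from 774 and 797 to 556 and 565 CPM (-0.49 ± 0.07, adjusted p = 0.00115). Another basement membrane gene, the laminin chain Lama5, fell from 8.58 and 11.7 to 3.10 and 3.54 CPM (-1.62 ± 0.24, adjusted p = 0.00207), while the integrin chain Itgb3 rose from 38.5 and 43.1 to 101 and 106 CPM. Fewer collagens rose when a DMSO library was left out, 5 and 6 for parental replicate 1 and 2 and 7 and 6 for KD replicate 1 and 2.

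Among matrix proteases and their inhibitors 12 of 34 rose and 1 fell (38.2%, against 11.1% of all tested genes), with a median of 0.19. The stromelysin gene Mmp3 went from 31.6 and 30.4 to 169 and 168 CPM (log2 fold change 2.44 ± 0.12, adjusted p = 6.15e-06), and Mmp13 and Mmp10, other proteases of the gene cluster on chromosome 9, went from 0.813 and 0.877 to 6.06 and 6.85 CPM and from 15.6 and 18.2 to 42.5 and 39.4 CPM. The membrane protease Mmp14 (0.14, adjusted p = 0.447) did not pass. The faller was Adam8, a membrane sheddase, from 35.2 and 34.1 to 16.5 and 16.4 CPM. Without parental DMSO replicate 1 the number rising was 7.

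Genes lower in KD cells included those of ER chaperones and the unfolded protein response, which folds secreted and membrane proteins and is switched on by ATF6 and XBP1 through the ER stress response element. Of 38 tested members 18 fell and 1 rose, and the median was -0.24. That element was searched as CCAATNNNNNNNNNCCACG on both strands, and its letters are in capitals in the promoter stretches of Hspa5 (chr2:34771980-34772088, plus strand), Creld2 (chr15:88819475-88819583, plus strand) and Calr (chr8:84847030-84847138, minus strand).
Hspa5: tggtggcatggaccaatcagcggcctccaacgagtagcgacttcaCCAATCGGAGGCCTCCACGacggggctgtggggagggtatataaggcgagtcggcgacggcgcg
Creld2: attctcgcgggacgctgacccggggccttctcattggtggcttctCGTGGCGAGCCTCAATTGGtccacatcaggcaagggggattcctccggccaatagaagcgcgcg
Calr: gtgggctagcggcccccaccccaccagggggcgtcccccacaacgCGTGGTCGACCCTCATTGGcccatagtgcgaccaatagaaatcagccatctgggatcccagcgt
Counted per gene, 0.137% of all 27025 genes in the promoter table held these letters. The letters were in 9 of the 409 genes that fell and have an entry (2.2%). Within the list 9 of the 29 members with an entry held them, namely Hspa5, Hsp90b1, Calr, Canx, Pdia6, Dnajc3, Creld2 and Ero1lb, which fell, and Syvn1 (log2 fold change 0.07, adjusted p = 0.722). The calls of Canx (without any 1 DMSO or parental largazole library, adjusted p = 0.0703 to 0.311) and Pdia6 (without KD DMSO replicate 1, adjusted p = 0.0522) were lost. Entries covered 76.3% of the list, so no share is given for it, and a match is a description only.

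Hspa5, the main ER chaperone BiP, went from 2351 and 2316 to 1223 and 1297 CPM (log2 fold change -0.89 ± 0.07, adjusted p = 7.55e-05). Its partner chaperone Hsp90b1 (GRP94) went from 3710 and 3564 to 2131 and 2191 CPM (-0.75 ± 0.08, adjusted p = 0.000233) and the disulfide isomerase Pdia4 from 747 and 759 to 377 and 378 CPM (-0.995 ± 0.074, adjusted p = 3.86e-05). Each KD library was well below both parental libraries, and the replicates were close. Smaller folding factors fell by as much, Creld2 from 185 and 175 to 86.6 and 79.8 CPM and Sdf2l1 from 73.1 and 68.7 to 32.6 and 31.2 CPM (-1.15 ± 0.10, adjusted p = 9.84e-05). The list summed to 19170 and 18620 CPM in parental and 13220 and 13330 CPM in KD libraries. The regulators themselves did not pass, with -0.05 for Atf6 (adjusted p = 0.832), 0.07 for Xbp1 (adjusted p = 0.651) and -0.13 for the sensor kinase Ern1 (adjusted p = 0.817), and Atf4, the factor of the integrated stress response, stood at -0.14 (adjusted p = 0.454). The member that rose, the small heat shock gene Cryab, lost its call without either parental DMSO library or KD DMSO replicate 1 (adjusted p = 0.0918 to 0.157), and Manf lost its call without any 1 DMSO or parental largazole library (adjusted p = 0.0554 to 0.216). Of the 19 calls 12 held without any 1 library.

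Genes of ribosome biogenesis, DNA replication and mitosis had members that fell and none that rose. The share called was 52.5% for ribosome biogenesis but 13.2% for mitosis, near the 11.1% of all tested genes called in either direction. Of all tested genes 4.01% were lower. Of 40 ribosome biogenesis genes 21 fell and none rose, with a median of -0.34 and 39 negative values. Nolc1, a nucleolar chaperone, fell from 240 and 236 to 164 and 167 CPM (log2 fold change -0.53 ± 0.07, adjusted p = 0.000959), and it was the 1 member whose call held without any 1 library. Ncl, the abundant nucleolar protein nucleolin, stood at 1291 and 1247 against 982 and 943 CPM (-0.40 ± 0.07, adjusted p = 0.00566, 0.0509 to 0.0801 without any 1 DMSO library). Leaving out either parental DMSO library or KD DMSO replicate 1 lowered the count to 1, leaving out KD DMSO replicate 2 to 4, and leaving out parental largazole replicate 1 or 2 to 10 and 12. The list summed to 6846 and 6671 CPM in parental and 5460 and 5410 CPM in KD libraries. Of 40 genes of DNA replication and S phase 12 fell, with a median of -0.21, and that number was at most 2 without any 1 DMSO library and 6 without either parental largazole library. Of 38 genes of mitosis 5 fell, with a median of -0.18, among them the kinase gene Aurkb, from 121 and 120 to 80.5 and 82.4 CPM (-0.57 ± 0.08, adjusted p = 0.00166), and 2 fell without any 1 DMSO library, 16 without KD largazole replicate 1 and 18 without KD largazole replicate 2. Cdkn1a, the cell cycle inhibitor p21, went from 190 and 190 to 279 and 261 CPM (0.51 ± 0.09, adjusted p = 0.00524), a call lost without either parental DMSO library or KD DMSO replicate 1 (adjusted p = 0.0729 to 0.0769).

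Targets of YAP and TEAD, the effectors of the Hippo pathway, fell in 5 of 22 cases and rose in 1, with a median of -0.10. The share called was 27.3%, against 11.1% of all tested genes. The matricellular genes Ctgf and Cyr61 went from 17.5 and 17.1 to 5.99 and 7.59 CPM (log2 fold change -1.35 ± 0.17, adjusted p = 0.00064) and from 123 and 121 to 81.3 and 85.01 CPM (-0.55 ± 0.08, adjusted p = 0.00196). Ankrd1, a nuclear ankyrin protein, went from 61.9 and 63.4 to 41.2 and 37.1 CPM. The riser was Nt5e, the ectoenzyme CD73, at 79.8 and 85.4 against 150 and 157 CPM. Without KD largazole replicate 1 and 2, 8 and 9 members fell.

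Secreted signals and guidance molecules moved both ways. Fstl1, a secreted follistatin-like protein, went from 52.5 and 53.03 to 166 and 174 CPM (log2 fold change 1.69 ± 0.08, adjusted p = 3.85e-06), Bmp4 from 17.4 and 20.4 to 49.9 and 43.8 CPM and its target Id3 from 4.88 and 5.47 to 19.4 and 15.2 CPM. Slit3, a guidance ligand for ROBO receptors, went from 7.91 and 8.16 to 61.6 and 68.4 CPM (3.01 ± 0.18, adjusted p = 9.87e-06), whereas the semaphorin Sema6a fell from 10.7 and 11.7 to 3.29 and 2.87 CPM (-1.86 ± 0.23, adjusted p = 0.000621). Among insulin-like growth factor binding proteins Igfbp7 rose from 3.03 and 2.50 to 19.4 and 18.1 CPM, and Igfbp3 fell from 52.4 and 48.6 to 24.2 and 22.6 CPM. Of the TGF-beta and BMP list 9 of 34 rose and 2 fell (32.4% called), with a median of 0.13. Of the guidance list 7 of 37 rose and 4 fell (29.7% called), with a median of 0.05. Of all tested genes 11.1% were called. Without any 1 DMSO library the number of TGF-beta and BMP genes rising was 4 or 5 and 0 fell, and of the guidance genes 4 rose and 1 fell. Without either parental largazole library 1 TGF-beta and BMP gene and 2 guidance genes fell, and without either KD largazole library 4 TGF-beta and BMP genes fell.

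Of 27 superoxide dismutase, catalase, glutathione peroxidase and glutathione genes 4 rose and none fell (14.8%, against 11.1% of all tested genes), with a median of 0.22. Leaving out either KD largazole library brought the number rising to 9, leaving out parental DMSO replicate 1 to 1, and leaving out KD DMSO replicate 1 or parental DMSO replicate 2 to 2. Sod3, the secreted superoxide dismutase, went from 114 and 114 to 366 and 326 CPM (log2 fold change 1.60 ± 0.12, adjusted p = 4.07e-05). The intracellular superoxide dismutases Sod1 (-0.08, adjusted p = 0.798) and Sod2 (0.17, adjusted p = 0.551) and the glutathione peroxidase Gpx1 (-0.13, adjusted p = 0.641) did not pass. Gpx4, which like PRDX6 reduces phospholipid hydroperoxides, stood at 205 and 201 CPM in parental and 200.3 and 205 CPM in KD cells (0.00 ± 0.14, adjusted p = 1), and the cystine transporter Slc7a11 at 28.5 and 32.4 against 37.1 and 37.7 CPM (0.30 ± 0.13, adjusted p = 0.178). Hmox1, the heme-degrading NRF2 target, had 45.1 and 44.9 against 81.2 and 68.9 CPM (0.74 ± 0.13, adjusted p = 0.00668), a call lost without either parental DMSO library or KD DMSO replicate 1 (adjusted p = 0.0764 to 0.085). Of 30 NRF2 targets 5 rose and 2 fell (23.3%), with a median of 0.09. No call of that list held in every fit that left out 1 library: 0 rose and 0 fell without either parental DMSO library or KD DMSO replicate 1, 2 rose and 0 fell without KD DMSO replicate 2 or either parental largazole library, and 9 and 8 rose and 4 fell without KD largazole replicate 1 and 2. Of 30 phospholipase A2 and lysophospholipid acyltransferase genes 2 rose and 1 fell, near the share of all tested genes, with a median of 0.02. Those counts were 0 without any 1 DMSO library, 1 and 1 without either parental largazole library and 4 and 2 without either KD largazole library. Of 48 nuclear-encoded subunits of oxidative phosphorylation 0 passed with edgeR, DESeq2 or limma-voom, and 0 had an unadjusted p under 0.05 with edgeR, with fitted changes from -0.18 to 0.27. A fit of the DMSO libraries alone called 2 of them. Of 21 class I histone deacetylase and corepressor genes 0 passed with those tools, 1 had an unadjusted p under 0.05 with edgeR and 5 passed with the DMSO libraries alone, with 0.16 for Hdac1 (adjusted p = 0.218), -0.18 for Hdac2 (adjusted p = 0.206) and 0.08 for Hdac3 (adjusted p = 0.614).

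The same genotypes were compared in the other 4 libraries, after largazole, whose means share no library with the DMSO comparison. Both sets of calls come from the same fit of all 8 libraries. They share its filter, scaling and estimate of spread, so the overlaps below are not between independent calls. Under largazole 1017 genes (8.12%) were higher and 1210 (9.67%) lower in KD cells. Of the 890 genes that rose in DMSO 592 also rose there, 66.5% of the DMSO and 58.2% of the largazole list, and of the 502 that fell 369 also fell, 73.5% and 30.5%. Interferon-stimulated genes rose in 48 of 51 cases with a median of 1.87, against 2.55 in DMSO. ER genes fell in 25 of 38 cases with a median of -0.59, against -0.24 in DMSO, and Hspa5 fell by 2.55 on the log2 scale. A test of the difference between conditions passed for 29 genes (0.232% of tested genes), 22 of them called in DMSO, and for 8 of the 38 ER genes. As DMSO was sampled at 0 h and largazole at 18 h, the conditions differ in both drug and time, which cannot be told apart. Mcpt8, a mast cell protease gene chosen after its values were seen, rose from 9.32 and 9.58 to 95.3 and 97.3 CPM in DMSO (log2 fold change 3.35 ± 0.14, adjusted p = 3.29e-06) and by 1.69 under largazole.

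**Figure D4:**
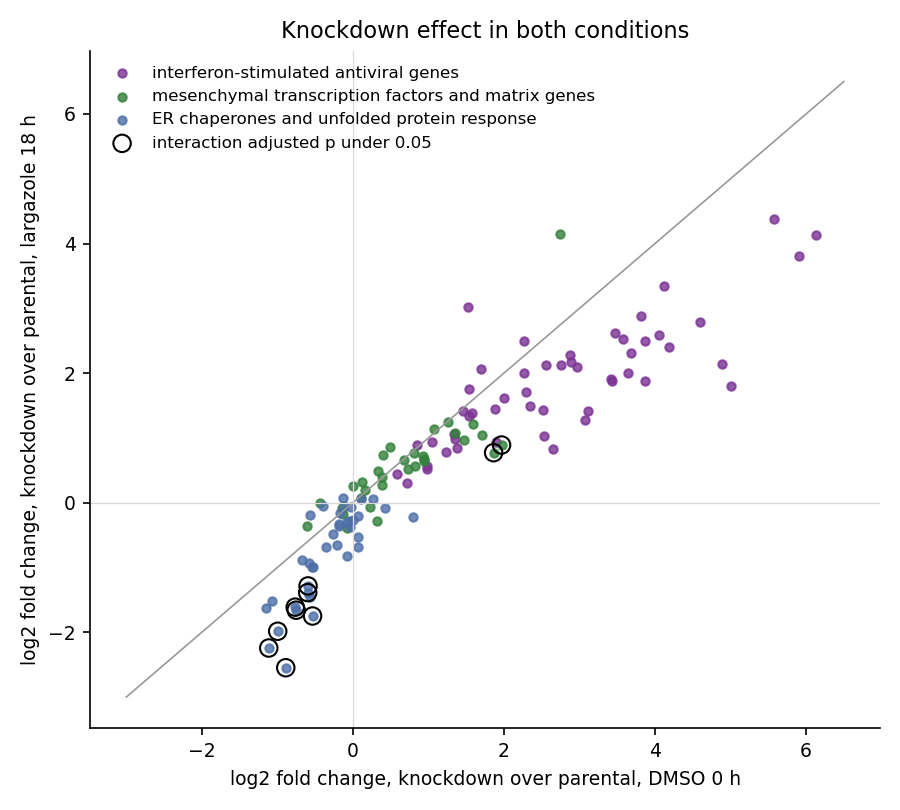
Fitted log2 fold change of KD over parental cells in DMSO (x axis) and under largazole (y axis) for the interferon-stimulated, mesenchymal and ER lists; the diagonal marks equal changes and rings mark the 10 genes whose difference between conditions passed the test. Most ER genes lie below the diagonal to the lower left, where Hspa5 is at -0.89 and -2.55.

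Changes were also summed by chromosome. The median log2 fold change over tested genes was 0.13 on chromosome 19 and -0.10 on chromosome 10, and between -0.05 and 0.05 on each of the other 18 chromosomes. On chromosome 19, 46 of 434 genes (10.6%) rose and 6 (1.38%) fell, and on chromosome 10, 27 of 597 (4.52%) rose and 50 (8.38%) fell. The medians of KD replicate 1 and replicate 2 over the parental mean were 0.14 and 0.12 on chromosome 19 and -0.08 and -0.09 on chromosome 10, and under largazole the fitted medians were 0.14 and -0.09. In windows of 20 Mb, chromosome 19 had medians of 0.13, 0.13 and 0.11 along its length, and chromosome 10 ranged from -0.01 to -0.18. Between the 2 parental DMSO libraries the medians of the other 18 chromosomes lay from -0.01 to 0.01. Copy number was not measured, and its part in these medians was not tested.

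**Figure D5:**
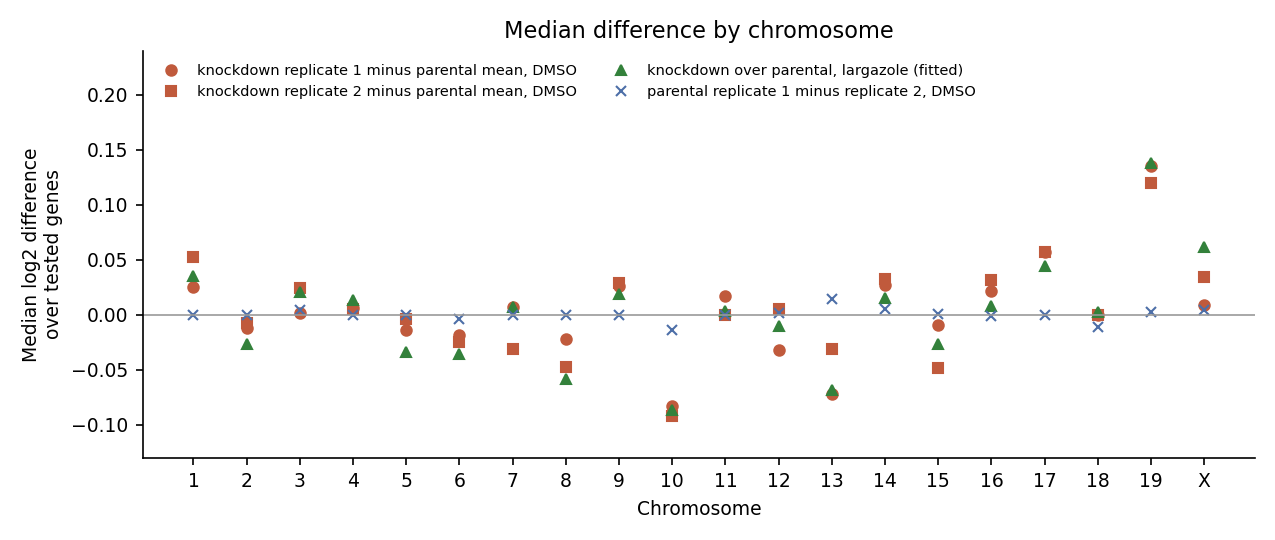
Median log2 difference over the tested genes of each chromosome, for each KD DMSO library minus the parental mean, for the fitted KD effect under largazole, and between the 2 parental DMSO libraries. Chromosome 19 is high and chromosome 10 low in both KD libraries and under largazole, while the parental replicates lie near 0 throughout.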

How the data were processed

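PolyA RNA of A223 cells was sequenced in 8 libraries, 2 per group. Per the labels' protocols the libraries were made with a directional kit after polyA selection. The authors deposited estimated counts for each gene without normalization, with 2.5% to 2.84% fractional values per library, which were rounded to whole numbers here. The genome build was mm10 per the submitters' processing notes. For the aligner, the counter, its strand setting and the annotation: not given in the sources used here.

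Genes were kept by filterByExpr (minimum count 10 and minimum total 15), library sizes were scaled by TMM, and the quasi-likelihood F test of edgeR 4.0.16 (two-sided) was run on a model with a mean for each group over all 8 libraries, which lets the groups share the spread (biological coefficient of variation 0.0946). P-values were adjusted by Benjamini-Hochberg over 12517 genes and called at 0.05. SE is |log2 fold change| / sqrt(F). CPM values are scaled by TMM. Symbols of 27 genes had been turned into dates by a spreadsheet, of which 21 were tested unnamed. Mitochondrially encoded genes were not analysed here.

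The 44 gene lists (1306 members, 1300 matched) and the members named were chosen with earlier results of these data known. The rule named Prdx6 and its family, the 15 most raised and 15 most lowered genes with at least 5 CPM and separated libraries, up to 6 members of each list, Gpx4, Slc7a11, Cdkn1a, Hdac1, Hdac2, Hdac3 and Rn45s. Further genes, such as Osmr, Mcpt8, Cebpd and the interferon ligands, were added after their values were seen, and not all genes of the rule are described. Positions came from GENCODE M21 on GRCm38, the mm10 assembly, for 12043 tested genes. Promoters of 32851 starts came from RefSeq (GRCm38.p6), with 9523 tested genes matched by symbol and 419 by an older symbol (79.4%). A share over a set with entries for under 80% of its members is void. Ratios of genes with 1 to 3 counts carry exact 95% intervals, which cover counting error only.

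Alternatives changed the scaling (RLE, upper quartile, totals), the filter (none, or minimum count 30 and 1 CPM), the tool (DESeq2 1.42.0, or voom in limma 3.58.1) and the libraries fitted (the 4 DMSO ones, or all but 1, taking the spread of the remaining groups for the single library left), or added the replicate number as a block. Fits without both KD largazole libraries and without Rn45s were chosen after seeing the data. Software was R 4.3.3 and Python 3.11.15 with matplotlib 3.10.9. Some genes are not reported here.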

Additional observations from a re-analysis of the deposited data

Results flagged for a closer look

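For 16 of the named genes the effect of the knockdown differed between the conditions in a direct test, the interaction of knockdown and largazole (edgeR's quasi-likelihood test, Benjamini-Hochberg adjustment over all tested genes). Values are the log2 effect of the knockdown under largazole minus that in DMSO. The DMSO libraries were sampled at 0 h and the largazole libraries at 18 h, so drug and time cannot be told apart. Across all tested genes 29 passed this test (0.232%).

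Genes of ER folding, which fell in DMSO, fell further under largazole. The differences were -1.66 for Hspa5 (adjusted p = 0.000182), -1.13 for Creld2 (adjusted p = 0.0165), -0.989 for Pdia4 (adjusted p = 0.00537) and -0.908 for Hsp90b1 (adjusted p = 0.0102). They were -0.849 for Hyou1, an ER chaperone of the HSP70 type (adjusted p = 0.00775), -0.789 for Calr (adjusted p = 0.0498) and -0.691 for Dnajc3, a cofactor of BiP (adjusted p = 0.0498). Cyr61, which also fell in DMSO, differed by -0.793 (adjusted p = 0.032).

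Genes that rose in DMSO and rose less under largazole were Mcpt8 with -1.66 (adjusted p = 0.00537), Loxl2 with -1.09 (adjusted p = 0.0318), Thy1 with -1.08 (adjusted p = 0.0266), Clu, a secreted chaperone, with -1.08 (adjusted p = 0.0165), and Odc1, the first enzyme of polyamine synthesis, with -0.886 (adjusted p = 0.0203). Slc7a11, which did not pass in DMSO, differed by -1.26 (adjusted p = 0.0394).

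The rise was larger under largazole for Il33, with a difference of 1.11 (adjusted p = 0.0038), and for Bnip3, a mitophagy receptor of the hypoxia response, with 0.968 (adjusted p = 0.0263).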

How the results depend on the processing

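In place of 1392 genes, other fits called different totals: 3248 of 11632 tested (1734 higher and 1514 lower) with only the 4 DMSO libraries fitted and 2992 without both KD largazole libraries. It ranged from 418 to 3016 without any 1 library. It was 1382 with RLE scaling, 1386 with upper-quartile scaling, 1295 with DESeq2 and 1353 with limma-voom. The split moved with the scaling and the fit, from 842 higher and 540 lower with RLE to 944 and 442 with upper-quartile scaling. With the replicate number as a block 2049 genes passed (1187 higher and 862 lower). Over 10183 genes the replicate difference correlated at 0.00167 between the parental and KD DMSO groups compared. Between the other pairs of the 4 groups it correlated at -0.00767 to 0.364, with 0.273 and 0.343 for KD DMSO against the parental and KD largazole groups. The labels do not say what a replicate number shares, so the replicate block is given as an alternative.

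By list, the chemokine and cytokine count of 16 ranged from 8 to 18 without any 1 library, with 8 and 10 without parental DMSO replicate 1 and 2. The ribosome biogenesis count of 21 ranged from 1 to 29. The peroxiredoxin, thioredoxin and glutaredoxin count of 3 was 5 with only the DMSO libraries, 6 without both KD largazole libraries and 6 without either of them. Prdx6 kept its direction and call under every alternative run.

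Values near 0 changed sign. Glrx2 was at -0.0114 with RLE, -0.00938 with library totals, -0.00989 with no filter, -0.0115 with DESeq2 and -0.00231 with the replicate block, and ranged from -0.0849 to 0.0761 without any 1 library. Gpx4 was at 0.0173 with upper-quartile scaling, 0.000859 with the stricter filter, 0.000182 with only the DMSO libraries, and ranged from -0.025 to 0.0156 without any 1 library. Txn2 was at 0.00792 with upper-quartile scaling and ranged from -0.0662 to 0.0356 without any 1 library. Without any 1 library Glrx5 ranged from -0.0853 to 0.0269, Prdx3 from -0.0155 to 0.108, Txnl1 from -0.0548 to 0.0845 and Txnrd2 from -0.25 to 0.0232. None of these passed the test. The cause of these shifts was not tested. Each group held 2 libraries, and counting error was largest for genes with few parental counts.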

Other observations

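Several strongly raised genes belong to none of the groups described so far and were chosen after their values were seen. Odc1, the first enzyme of polyamine synthesis and one of the more abundant transcripts, went from 888 and 886 CPM in parental to 2150 and 2092 CPM in KD cells (log2 fold change 1.26 ± 0.08, adjusted p = 2.22e-05, edgeR's quasi-likelihood test). Slpi, a secreted inhibitor of neutrophil proteases, went from 16.1 and 15.3 to 93.6 and 80.4 CPM (2.48 ± 0.22, adjusted p = 9.37e-05). Stra6, the receptor for the retinol-binding protein, went from 3.40 and 3.71 to 26.3 and 29.5 CPM (2.97 ± 0.17, adjusted p = 8.68e-06). Gfpt2, which feeds the hexosamine pathway, went from 12.1 and 11.9 to 45.6 and 42.1 CPM (1.87 ± 0.10, adjusted p = 8.68e-06), and Emilin2, a matrix glycoprotein, from 83.3 and 79.2 to 251 and 257 CPM (1.64 ± 0.09, adjusted p = 6.15e-06). In each of these the KD libraries lay well above the parental ones. The growth factors Hgf, the ligand of MET, and Fgf7, a growth factor for keratinocytes, went from 27.9 and 33.5 to 73.2 and 86.1 CPM and from 66.8 and 68.1 to 163 and 150 CPM. The inflammatory caspases Casp1 (36.7 and 39.4 to 77.4 and 73.8 CPM) and Casp4 (7.39 and 6.81 to 22.3 and 22.1 CPM) rose by 0.99 ± 0.10 (adjusted p = 0.000203) and 1.64 ± 0.17 (adjusted p = 0.00025).

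Among lowered genes, Cfl1, which encodes the actin-severing protein cofilin, went from 1271 and 1224 to 764 and 705 CPM (log2 fold change -0.76 ± 0.10, adjusted p = 0.000863), and Mical2, an actin-oxidising enzyme, from 221 and 228 to 115 and 129 CPM (-0.88 ± 0.11, adjusted p = 0.000881). Met, the receptor for HGF, stood at 230 and 225 against 127 and 147 CPM (-0.73 ± 0.13, adjusted p = 0.00638), a call lost without either parental DMSO library or KD DMSO replicate 1 (adjusted p = 0.058 to 0.091). The exons of Cfl1 overlap those of Snx32 on the other strand.

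Gvin1 and Gm7334, whose names mark interferon-inducible GTPases and an unnamed gene model, were at 0 in both parental libraries. They stood at 57.0 and 57.0 CPM and 37.0 and 16.1 CPM in the KD libraries. The call of Gvin1 was lost without either parental DMSO library, and that of Gm7334 without any 1 DMSO library. Gm4070 stood at 46.1 and 50.5 CPM in parental and 143 and 99.5 CPM in KD cells. How reads were divided among near copies of these genes is not given in the sources used here, so these values are uncertain.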
